A study of Mus musculus with 12 samples.

Results

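The genes described here are 9 parts of the type I interferon signal, taken by symbol from 57010 counted genes. Ifnar1 and Ifnar2 encode the receptor subunits, Stat2 and Irf9 encode the partners of the receptor-activated transcription factor, and Irf1, Irf2, Irf3, Irf5 and Irf7 encode further interferon regulatory factors. Each of the 9 passed the filter on low counts that left 15425 genes for testing. Bulk polyA RNA was sequenced from preosteoclasts of female mice in 12 libraries, with 2 libraries in each of 6 conditions. LSD1cKO mice lack the histone demethylase LSD1 (gene Kdm1a) in myeloid cells through LysM-Cre, a Cre recombinase driven by the Lyz2 promoter of monocytes, macrophages and granulocytes, and LSD1WT mice were their controls. Marrow was taken from the mandible or the femur of mice that had carried a tooth ligature, a model of periodontitis, for 7 days, or from the femur of mice with no ligature. The marrow was then held for 2 days in M-CSF and RANKL, the cytokines that drive osteoclast formation. The design text gives an age of 2 months, and the sequencing methods give 3 months. The labels name 9 mice. Of these, 1 LSD1WT and 2 LSD1cKO mice each supplied a library from either site, so that the 6 libraries of a genotype are not 6 mice.

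Interferons of type I bind the receptor formed by IFNAR1 and IFNAR2, and the Janus kinases JAK1 and TYK2 on its tails phosphorylate STAT2, which joins IRF9 in the complex ISGF3. This complex binds interferon-stimulated response elements in antiviral genes, Irf7, Irf9 and Stat2 among them. IRF3 and IRF7 switch on the interferon genes themselves after nucleic acid sensors fire, IRF5 acts after Toll-like receptors, IRF1 activates genes of the interferon-gamma response, and IRF2 competes with IRF1 for its sites. In osteoclast precursors RANKL induces IFN-β, which restrains further osteoclast formation.

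The bases before the transcription start of 4 of the genes are shown because they differ in the response elements they hold. Capitals mark matches to GAAANNGAAA, the letters searched for the interferon-stimulated response element, and to TTCNNNGAA, the letters searched for the gamma-activated site of interferon-gamma responses, on either strand. Each window is the 250 bases upstream of a RefSeq start on GRCm38.p6, written 5′ to 3′ along the gene.
Irf7 (chr7:141266425-141266674, minus strand): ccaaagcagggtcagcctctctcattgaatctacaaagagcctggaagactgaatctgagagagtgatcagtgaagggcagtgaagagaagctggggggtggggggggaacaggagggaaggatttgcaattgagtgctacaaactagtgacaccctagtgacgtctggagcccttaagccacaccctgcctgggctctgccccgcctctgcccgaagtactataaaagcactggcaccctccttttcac
Stat2 (chr10:128270248-128270497, plus strand): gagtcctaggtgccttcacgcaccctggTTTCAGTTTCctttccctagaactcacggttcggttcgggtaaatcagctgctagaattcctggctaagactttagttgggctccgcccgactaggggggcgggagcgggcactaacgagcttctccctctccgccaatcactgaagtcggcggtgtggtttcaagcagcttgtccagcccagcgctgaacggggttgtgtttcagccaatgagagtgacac
Irf1 (chr11:53769764-53770013, plus strand): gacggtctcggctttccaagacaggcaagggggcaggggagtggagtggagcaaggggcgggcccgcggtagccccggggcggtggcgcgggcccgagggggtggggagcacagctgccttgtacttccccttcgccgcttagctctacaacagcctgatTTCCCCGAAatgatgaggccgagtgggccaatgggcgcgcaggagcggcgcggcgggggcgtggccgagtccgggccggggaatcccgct
Irf2 (chr8:46739495-46739744, plus strand): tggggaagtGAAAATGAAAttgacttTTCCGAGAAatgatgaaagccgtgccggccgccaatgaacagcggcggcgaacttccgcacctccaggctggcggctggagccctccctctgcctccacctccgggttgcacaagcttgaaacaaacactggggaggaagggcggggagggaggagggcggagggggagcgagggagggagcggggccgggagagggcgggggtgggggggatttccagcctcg
The interferon-stimulated element lay 222 to 213 bases before the start of Stat2, on the opposite strand, and 241 to 232 bases before that of Irf2. Irf2 held a gamma-activated site as well, 224 to 216 bases before its start, and Irf1 held its own 90 to 82 bases before the upstream start of its 2 windows. Among the 9 genes, 2 held the response element and 3 the gamma-activated site (the third was Ifnar2), while over 32851 windows of the same length these letters stood in 2.98% and 7.02%. Irf7 held neither in this window, which says only that these letters are absent from it.

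Irf7 was the only gene described here to pass the threshold of 0.05 over the 3 cultures (edgeR adjusted p 0.00662). It was 6.55-fold higher in LSD1cKO. Its LSD1cKO libraries lay above its LSD1WT libraries within each culture, as did those of 5.17% of all genes. In no single culture did Irf7 pass the threshold by edgeR (adjusted p 0.434 to 0.761). The call over the cultures was lost (edgeR adjusted p 0.0549) when a mandible LSD1WT library with conflicting labels was taken as femur. Irf1 was the other gene whose LSD1cKO libraries lay above the LSD1WT libraries within every culture, by a smaller step. Neither receptor gene nor Irf2 or Irf3 passed the threshold, with log2 fold changes between -0.37 and 0.18. Irf5, Irf9 and Stat2 stood far apart within the LSD1WT femur pairs, and LSD1cKO libraries overlapped those pairs, except for Stat2 in the ligated femur. Between the sites, every gene except Irf3 was lower in the mandible than in the ligated femur. In these bulk samples, fewer cells that carry a transcript and less of it per cell cannot be told apart.

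**Figure D1:**
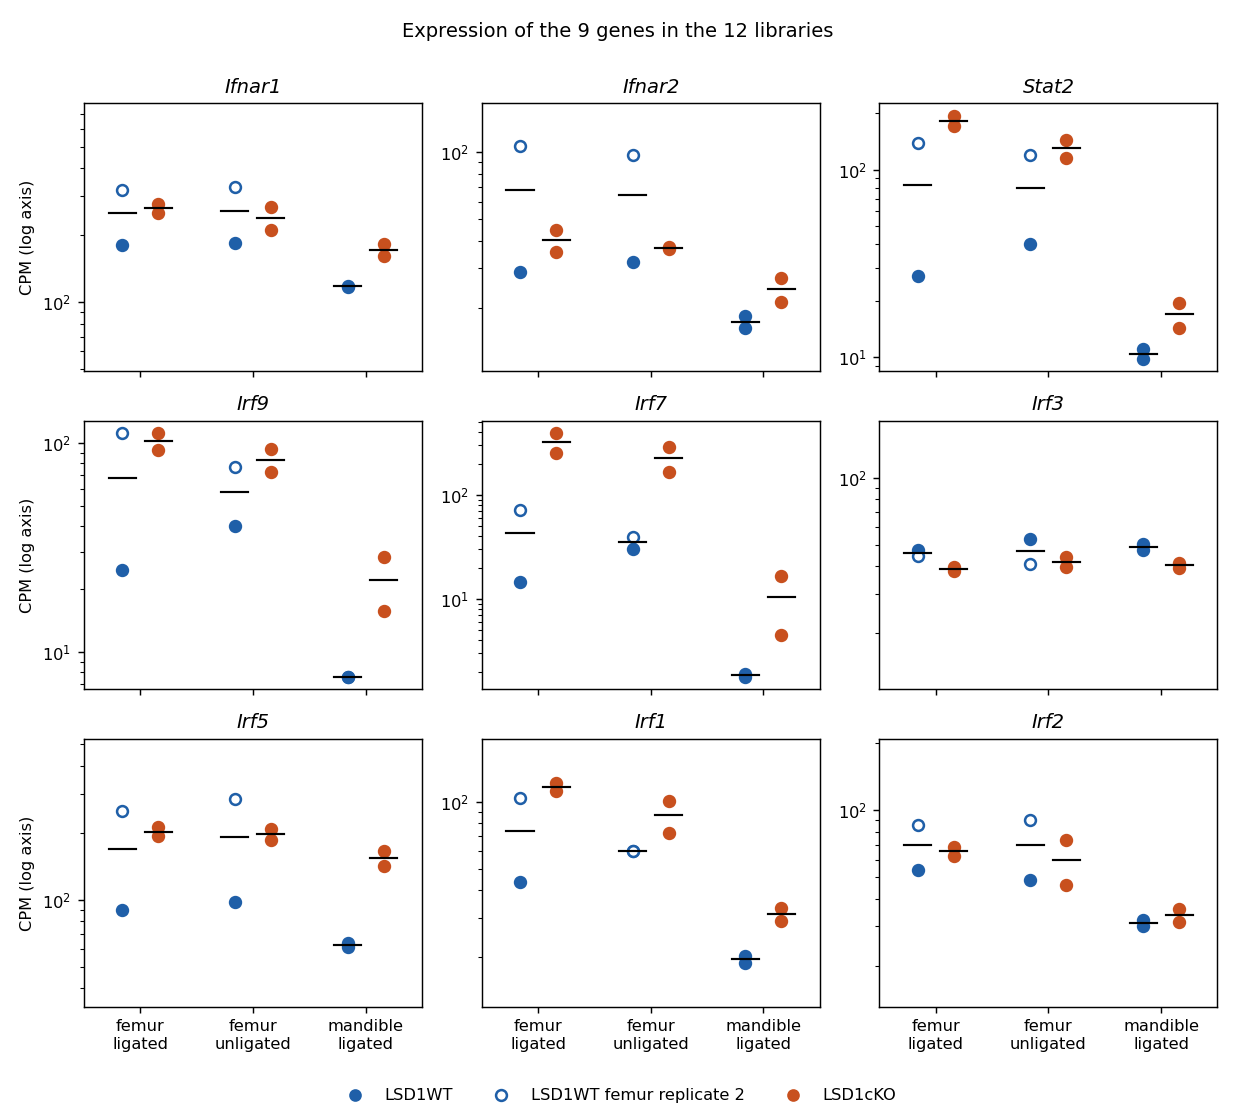
Expression in CPM (log axis) of each of the 9 genes in each library, by culture, with LSD1WT in blue, LSD1cKO in orange and a black line at the mean of the pair. Open circles are the LSD1WT femur libraries of replicate 2, which lay above replicate 1 for every gene except Irf3, while Irf7 in LSD1cKO lay above both LSD1WT libraries in each culture.

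Total counts ran from 21375805 to 32526751 per library, and levels are given as CPM, the counts of a gene relative to the TMM-scaled size of its library. A gene with a count of 0 could have a level of up to 0.0927 to 0.154 CPM, the worth of 3 counts, by counting error alone. Kdm1a was at 61.2 to 71.3 CPM in LSD1WT and 15.6 to 24.3 CPM in LSD1cKO, without overlap, and fell by 1.82 on the log2 scale (standard error 0.11, edgeR adjusted p 3.56e-05). Replicate 2 of LSD1WT in the femur stood apart in ligated and unligated mice alike. Its osteoclast markers (18 genes, summed) were 2.29% of those of replicate 1 with the ligature and 2.54% without it, and its macrophage markers (10 genes, summed) reached 14126 and 11005 CPM against 1631 to 4714 CPM in the other 10 libraries. The part of this in the values below was not tested beyond leaving these libraries out. The mandible LSD1WT libraries were nearly alike, with a biological coefficient of variation of 0.0246 against 0.0965 to 0.716 in the other pairs, and replicate 3 there has a title that places it in the mandible and a library name that places it in the femur. The title was followed. A pair so close leaves little room for overlap between the genotypes in the mandible, and the share of all genes without overlap there was not counted. The labels give the 2 libraries of a condition different mouse numbers and say nothing more of how the cultures were made. The p values measure the spread between these libraries, which may be technical in part.

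Ifnar1 (ENSMUSG00000022967), which encodes the signalling subunit that binds TYK2, was at 180.4 and 321 CPM in the ligated LSD1WT femur and at 277 and 252 CPM in LSD1cKO. Without a ligature the femur held 184 and 328 CPM for LSD1WT against 267 and 210.3 CPM for LSD1cKO. The LSD1cKO pairs lay between the 2 LSD1WT libraries in both femur cultures. In the mandible, where the pairs did not overlap, it was at 118 and 117 CPM for LSD1WT against 161 and 183 CPM for LSD1cKO. Its log2 fold change over the 3 cultures was 0.18 (standard error 0.20), with an adjusted p of 0.734 by the quasi-likelihood test of edgeR (Benjamini-Hochberg adjustment over all genes tested), which is the test of every adjusted p below unless another is named.

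Ifnar2 (ENSMUSG00000022971), which encodes the subunit that binds ligand tightly and carries JAK1, was at 28.9 and 107 CPM in the ligated LSD1WT femur and at 44.9 and 35.4 CPM in LSD1cKO. Unligated femurs gave 32.0 and 97.1 CPM for LSD1WT against 37.4 and 36.6 CPM for LSD1cKO. Replicate 2 of LSD1WT was the highest library of the femur in each case, at 3.69 and 3.03 times replicate 1. Mandible libraries were at 16.2 and 18.4 CPM for LSD1WT against 21.1 and 27.3 CPM for LSD1cKO, without overlap. The log2 fold change over the cultures was -0.37 (standard error 0.38, adjusted p 0.706). It turned to 0.44 (standard error 0.12, adjusted p 0.0195) with both replicate 2 libraries of the LSD1WT femur left out. The receptor subunits also moved apart in those libraries. The ratio of Ifnar2 to Ifnar1 counts was 0.332 and 0.296 there and 0.131 to 0.174 in the other 10 libraries, a ratio chosen after its values were seen.

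Stat2 (ENSMUSG00000040033), which encodes the STAT particular to type I and type III interferon signalling, was at 27.2 and 139 CPM in the ligated LSD1WT femur and at 171 and 195 CPM in LSD1cKO, so these pairs did not overlap. Unligated femurs held 40.1 and 120 CPM for LSD1WT, overlapped by the lower of the LSD1cKO libraries at 115 and 145 CPM. The mandible had 9.79 and 11.1 CPM for LSD1WT against 14.3 and 19.5 CPM for LSD1cKO, again without overlap. The LSD1WT femur libraries differed from each other by 5.10-fold with the ligature and by 2.98-fold without it, a wider gap than that between the genotype means in either culture. Over the 3 cultures the log2 fold change was 0.85 (standard error 0.37), at an unadjusted p of 0.0427 and an adjusted p of 0.289.

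Irf9 (ENSMUSG00000002325), which encodes the DNA-binding part of ISGF3, followed Stat2. It was at 24.7 and 111 CPM in the ligated LSD1WT femur and at 92.7 and 111 CPM in LSD1cKO. The unligated femur had 39.9 and 76.7 CPM for LSD1WT against 72.3 and 93.9 CPM for LSD1cKO, and both femur cultures overlapped. In the mandible Irf9 was at 7.63 CPM in each LSD1WT library and at 15.8 and 28.4 CPM in LSD1cKO, which did not overlap. The log2 fold change was 0.87 over the cultures (standard error 0.36, unadjusted p 0.0338, adjusted p 0.258).

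Irf7 (ENSMUSG00000025498), the regulator that amplifies interferon production once a first interferon signal has raised it, was at 14.7 and 72.1 CPM in the ligated LSD1WT femur and at 254 and 390.4 CPM in LSD1cKO. Without a ligature the femur held 30.2 and 39.7 CPM for LSD1WT against 168 and 289 CPM for LSD1cKO. In the mandible it was at 1.80 and 1.91 CPM for LSD1WT against 4.53 and 16.6 CPM for LSD1cKO. The lower LSD1cKO library was above the higher LSD1WT library in all 3 cultures, but across cultures the genotypes overlapped, since the mandible LSD1cKO libraries lay below the LSD1WT femur libraries, except that the higher of them lay above ligated replicate 1. Irf7 rose in LSD1cKO by a log2 fold change of 2.71 over the cultures (standard error 0.42, adjusted p 0.00662), and ranked at 136 of 15425 genes by p. That fit took 6 LSD1cKO libraries of 4 mice and 6 LSD1WT libraries of 5 mice, with no term for the shared mice. The log2 fold change was 2.51 in the mandible (standard error 0.82, adjusted p 0.761), 2.89 in the femur with a ligature (standard error 0.80, adjusted p 0.434) and 2.71 in the femur without one (standard error 0.80, adjusted p 0.68). The call over the cultures was lost, at an adjusted p of 0.0549, when the mandible LSD1WT library with conflicting labels was taken as femur.

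Irf3 (ENSMUSG00000003184), the constitutively made regulator that sensors activate by phosphorylation, was the steadiest of the 9. It was at 47.2 and 44.4 CPM in the ligated LSD1WT femur and at 39.8 and 38.2 CPM in LSD1cKO. Unligated femurs had 53.0 and 41.0 CPM for LSD1WT against 39.6 and 44.2 CPM for LSD1cKO. The 12 libraries spanned 38.2 to 53.0 CPM, a narrower span than that of any of the other genes. In the mandible it was at 50.2 and 47.3 CPM for LSD1WT against 41.5 and 39.2 CPM for LSD1cKO, so that LSD1cKO was the lower genotype without overlap in both cultures of ligated mice. The log2 fold change was -0.22 (standard error 0.09, unadjusted p 0.0333, adjusted p 0.256). The ratio of Irf7 to Irf3 counts, chosen after its values were seen, was 0.0357 to 1.62 in LSD1WT and 0.109 to 10.2 in LSD1cKO, and it was 4.24 or more in each LSD1cKO femur library.

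Irf5 (ENSMUSG00000029771), a regulator of inflammatory cytokine genes in macrophages, was at 89.6 and 250.1 CPM in the ligated LSD1WT femur and at 194 and 212 CPM in LSD1cKO. Without a ligature the femur held 98.05 and 283 CPM for LSD1WT against 208 and 187 CPM for LSD1cKO. Replicate 2 of LSD1WT was the highest library in each femur culture and replicate 1 the lowest. The mandible pairs did not overlap, at 61.6 and 64.1 CPM for LSD1WT against 141 and 166 CPM for LSD1cKO. The log2 fold change was 0.53 over the cultures (standard error 0.33, adjusted p 0.49) and 1.29 in the mandible (standard error 0.54, unadjusted p 0.0434, adjusted p 1).

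Irf1 (ENSMUSG00000018899), an activator that interferon-gamma induces, was at 43.6 and 104 CPM in the ligated LSD1WT femur and at 112 and 122 CPM in LSD1cKO. Without a ligature the femur held 59.8 and 60.3 CPM for LSD1WT against 101 and 72.6 CPM for LSD1cKO. The mandible had 18.9 and 20.2 CPM for LSD1WT against 29.2 and 33.3 CPM for LSD1cKO. LSD1cKO was higher without overlap within each culture. The log2 fold change was 0.62 (standard error 0.19, unadjusted p 0.00676), and the adjusted p of 0.11 missed the threshold of 0.05.

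Irf2 (ENSMUSG00000031627), which encodes the competitor of IRF1, was at 53.9 and 86.0 CPM in the ligated LSD1WT femur and at 68.6 and 62.0 CPM in LSD1cKO. Unligated femurs gave 48.4 and 90.5 CPM for LSD1WT against 73.6 and 46.2 CPM for LSD1cKO. The pairs overlapped in all 3 cultures, the mandible included, where it was at 32.0 and 30.2 CPM for LSD1WT against 31.6 and 35.9 CPM for LSD1cKO. Its log2 fold change of -0.06 (standard error 0.19, adjusted p 0.913) was the median of the 15425 genes tested. The balance of the activator and its competitor, given by the ratio of Irf1 to Irf2 counts, was 1.38 to 1.96 in the LSD1cKO femur and 0.667 to 1.24 in the LSD1WT femur, a ratio chosen after its values were seen.

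Over the 3 cultures, 1 of the 9 genes was called at an adjusted p under 0.05, beside 3.53% of all genes tested. At an unadjusted p under 0.05, 4 were higher in LSD1cKO (Irf1, Irf7, Irf9 and Stat2, beside 8.31% of all genes) and 1 was lower (Irf3, beside 7.76%). Higher in LSD1cKO without overlap within each of the 3 cultures were 2 of 9, beside 5.17% of all genes, and lower were 0 of 9, beside 3.20%. The median log2 fold change of the 9 genes was 0.53, and that of all genes tested was -0.06. Leaving out both LSD1WT femur libraries of replicate 2, an alternative added after the data were seen, called 8 of 9 (all but Irf2), beside 24.2% of all genes. In that fit of 4 LSD1WT and 6 LSD1cKO libraries, Irf5 had a log2 fold change of 1.22 (standard error 0.10, adjusted p 2.34e-05), Irf9 1.57 (standard error 0.21, adjusted p 0.000532), Stat2 1.59 (standard error 0.32, adjusted p 0.0052) and Irf7 3.26 (standard error 0.47, adjusted p 0.000825). Smaller changes were those of Irf1 at 0.88, Ifnar1 at 0.54, Ifnar2 at 0.44 and Irf3 at -0.25, with adjusted p values of 0.00387, 0.00357, 0.0195 and 0.0391. Irf7 was called and Irf2 was not called in either fit, and the calls on the other 7 genes depended on whether these libraries were kept. The libraries left out were the higher of their LSD1WT femur pair for every gene except Irf3. The smaller fit keeps 1 LSD1WT library in each femur culture. Its only LSD1WT pair is the nearly alike mandible pair (biological coefficient of variation 0.0246), so its standard errors and p values hold little of the spread between LSD1WT libraries.

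**Figure D2:**
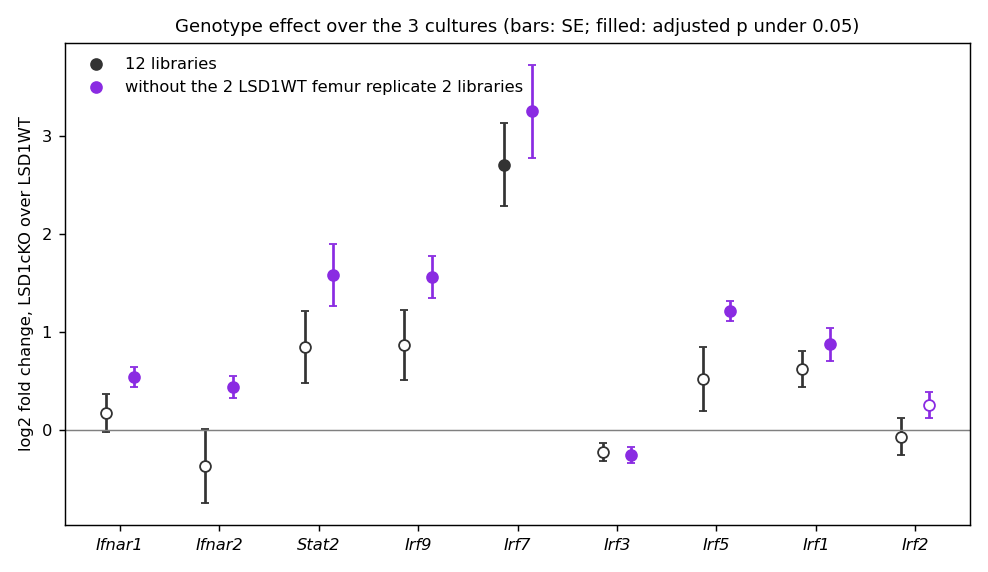
Log2 fold change of LSD1cKO over LSD1WT over the 3 cultures for each gene, with bars of 1 standard error, in all 12 libraries (dark) and without the LSD1WT femur libraries of replicate 2 (violet), filled where the adjusted p was under 0.05. In the 12 libraries Irf7 alone is filled, at 2.71, and without those libraries every gene except Irf2 is.

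Within single cultures the test had 2 libraries against 2. In the mandible 0 of 9 genes were called, as were 0% of all genes, and DESeq2 also called 0. At an unadjusted p under 0.05, 3 of 9 were higher there (Irf5, Irf7 and Irf9, the last with a log2 fold change of 1.53 and a standard error of 0.64), beside 3.81% of all genes, and 8 of 9 had LSD1cKO on the higher side, with a median of 0.68 against 0 over all genes. A fit of the 4 mandible libraries alone called 8 of 9 (all but Irf2), beside 37.7% of all genes, and its spread takes in the nearly alike LSD1WT pair. In the ligated femur 0 of 9 were called, beside 0.00648% of all genes, 1 was higher at an unadjusted p under 0.05 (Irf7, beside 3.91%), and DESeq2 called Irf7, beside 1.41% of all genes. In the unligated femur the counts were again 0 and 1 (Irf7, beside 3.61%), with 0% of all genes called, and DESeq2 called Irf7, beside 0.791% of all genes. The mandible log2 fold changes of the remaining genes were 0.68 for Irf1, 0.12 for Irf2, -0.27 for Irf3, 0.69 for Stat2, 0.55 for Ifnar1 and 0.49 for Ifnar2. Their standard errors were 0.36, 0.35, 0.18, 0.70, 0.35 and 0.62, and their adjusted p values were each 1. In the 2 femur cultures the genes other than Irf7 ran from -0.75 (Ifnar2) to 1.14 (Stat2) with the ligature and from -0.80 (Ifnar2) to 0.70 (Stat2) without it. Their standard errors ran from 0.18 to 0.70, and their adjusted p values were 0.77 or more.

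The genotype effect was compared between the mandible and the ligated femur, and between the ligated and the unligated femur, as an interaction. No gene of the 9 had an unadjusted p under 0.05 in either (beside 0.966% and 0.344% of all genes), and 0 were called by edgeR or DESeq2. For Irf7 the difference of log2 fold changes was -0.38 between mandible and ligated femur, with an interval of 2 standard errors from -2.56 to 1.80. That interval takes in a difference of several-fold either way. The largest differences were 1.24 for Ifnar2 (from -0.51 to 2.99) and 1.03 for Irf5 (from -0.48 to 2.55), as the effect in the mandible minus that in the ligated femur. For Ifnar2 these effects had opposite signs, at 0.49 and -0.75, and for Irf5 they were 1.29 and 0.26. Over the alternatives run, the ligated femur effect went from -1.32 to 0.56 for Ifnar2 and from -0.21 to 1.26 for Irf5. That of Ifnar2 was 0.56 without both LSD1WT femur libraries of replicate 2.

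The genes of ISGF3 and Irf7 stood far lower in mandible cultures than in femur cultures of ligated mice, in both genotypes, though no adjusted p passed the threshold. In LSD1WT 8 of 9 genes were lower in the mandible without overlap (beside 31.5% of all genes) and at an unadjusted p under 0.05 (beside 14.7%). Irf7 had a log2 fold change of -4.55 (standard error 0.88), Irf9 -3.15 (standard error 0.67), Stat2 -2.99 (standard error 0.75), Ifnar2 -1.97 (standard error 0.64) and Irf1 -1.92 (standard error 0.37). Smaller steps were those of Irf5 at -1.43, Irf2 at -1.17 and Ifnar1 at -1.09, with standard errors of 0.55, 0.36 and 0.35. Adjusted p values were 0.167 to 0.217 for these 8, so none was called, nor was any gene of all those tested, while DESeq2 called 5, beside 7.71% of all genes. The femur side of this comparison holds a replicate 2 library. Without it the log2 fold changes were -2.98 for Irf7, -1.70 for Irf9, -1.39 for Stat2, -1.16 for Irf1 and -0.52 for Irf5, with standard errors of 0.68, 0.44, 0.53, 0.23 and 0.50. Those of Irf2, Ifnar2 and Ifnar1 were -0.80, -0.74 and -0.62, with standard errors of 0.39, 0.53 and 0.34. In that fit 4 of 9 genes (Irf1, Irf7, Irf9 and Stat2) had an unadjusted p under 0.05, and none was called. Without replicate 1 instead, 8 of 9 were called, beside 23.2% of all genes.

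LSD1cKO gave the same comparison in 2 mice with a library from each site. Here 8 of 9 genes were lower in the mandible without overlap (beside 35.0% of all genes), and 5 of them at an unadjusted p under 0.05 (beside 6.81%). These were Irf7 with a log2 fold change of -4.93 (standard error 0.88, adjusted p 0.107), Stat2 with -3.44 (standard error 0.76, adjusted p 0.138), Irf9 with -2.21 (standard error 0.64, adjusted p 0.202), Irf1 with -1.90 (standard error 0.37, adjusted p 0.107) and Irf2 with -0.95 (standard error 0.36, adjusted p 0.266). The remaining 4 ran from -0.73 (Ifnar2) to 0.05 (Irf3). None was called in the fit without pairing, nor was any gene, and DESeq2 called 4, beside 5.25% of all genes. Because the labels tie these libraries to mice, a block for the mouse was fitted too. It called 7 of 9 in LSD1cKO (all but Irf3 and Irf5, beside 36.8% of all genes) and 6 of 9 in LSD1WT (all but Irf3, Irf5 and Ifnar1, beside 7.71%). That fit has 1 residual degree of freedom, which comes from the LSD1cKO mice, and in LSD1WT it rests on 1 mouse. Summed osteoclast markers were 17625 to 30139 CPM in the mandible libraries against 1043 to 45622 CPM in the femur libraries, and macrophage markers were 1631 to 2099 CPM there against 3158 to 14126 CPM in the femur libraries. Within the mandible the osteoclast sums were 30139 and 30034 CPM in LSD1WT and 17625 and 17730 CPM in LSD1cKO, without overlap, while both femur cultures overlapped. The part of these marker differences in the site and genotype differences was not tested.

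**Figure D3:**
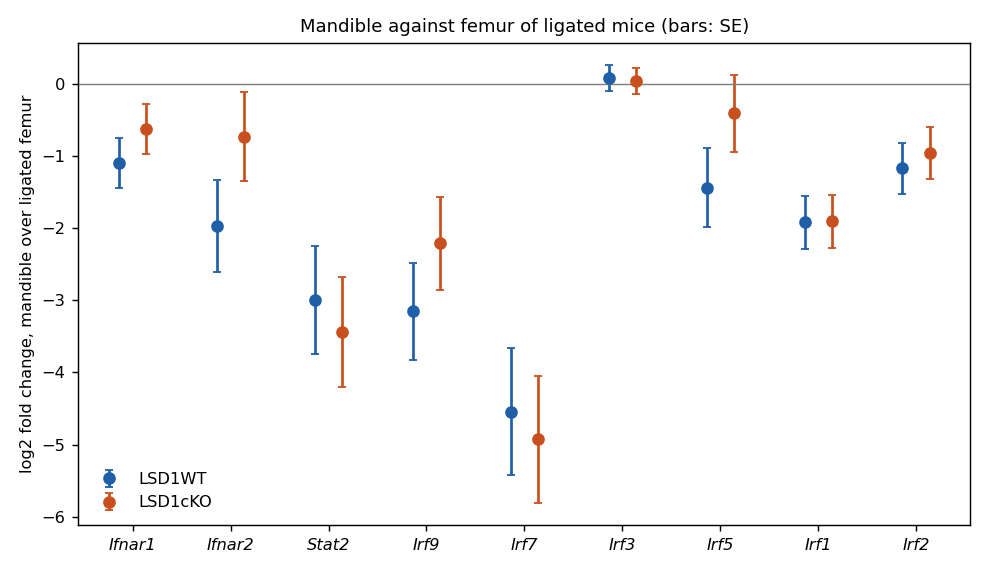
Log2 fold change of the mandible over the femur of ligated mice for each gene, LSD1WT in blue and LSD1cKO in orange, with bars of 1 standard error. Irf7, Irf9 and Stat2 lie between -2.21 and -4.93 in both genotypes, and Irf3 lies at 0.09 and 0.05.

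The ligature was compared in femur cultures, far from the tooth that carried it. At an unadjusted p under 0.05, 0 of 9 genes differed between ligated and unligated mice in LSD1WT (beside 0.765% of all genes) and 0 of 9 in LSD1cKO (beside 0.959%), and 0 were called by edgeR or DESeq2. The log2 fold changes ran from -0.17 (Irf5) to 0.31 (Irf7) in LSD1WT and from -0.10 (Irf3) to 0.50 (Irf7) in LSD1cKO. The interval of 2 standard errors for Irf7 was from -1.19 to 1.81 in LSD1WT and from -0.999 to 1.99 in LSD1cKO. These comparisons share their libraries with the genotype comparisons of the femur.

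Irf7 and Stat2, both raised by ISGF3, varied together over the 12 libraries, but their ratio differed by genotype. The ratio of Irf7 to Stat2 counts, chosen after its values were seen and so given as a description, was 0.538 and 0.520 in the ligated LSD1WT femur and 1.48 and 2.00 in LSD1cKO. Without a ligature the ratio was 0.754 and 0.332 in LSD1WT and 1.46 and 2.00 in LSD1cKO, and in the mandible it was 0.183 and 0.172 in LSD1WT and 0.318 and 0.850 in LSD1cKO. Within each culture the genotypes did not overlap. The LSD1WT femur libraries of replicate 2, which had Stat2 levels within or near those of LSD1cKO, kept ratios below it. The ratio of Irf7 to Irf9 behaved alike, at 0.518 to 0.757 in the LSD1WT femur and 2.32 to 3.52 in the LSD1cKO femur. The ratio of Stat2 to Irf9 counts differed in direction by culture. In the ligated femur it was 1.10 to 1.25 in LSD1WT and 1.76 to 1.85 in LSD1cKO. In the mandible LSD1cKO was the lower genotype, at 0.688 to 0.904 against 1.28 to 1.45. The unligated femur overlapped, at 1.00 to 1.56 in LSD1WT and 1.54 to 1.59 in LSD1cKO.

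**Figure D4:**
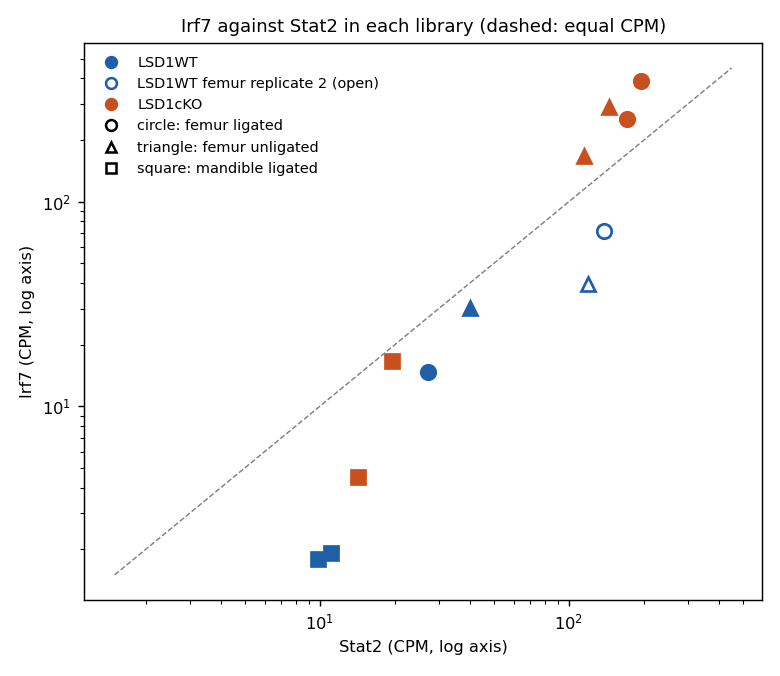
Irf7 against Stat2 in CPM in each library, both axes on a log scale, with the genotype by colour, the culture by shape and a dashed line where the values are equal. The 4 LSD1cKO femur libraries lie above the line, and the open LSD1WT femur libraries of replicate 2 lie below it at Stat2 levels of 120 and 139 CPM.

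Per kilobase of exon the genes held different shares of the transcriptome. The median over the 12 libraries, in CPM per kilobase, was 60.6 for Irf5, 33.2 for Ifnar1, 15.1 for Irf1, 13.1 for Stat2, 12.5 for Irf3, 10.4 for Irf9, 10.1 for Ifnar2, 9.26 for Irf7 and 6.92 for Irf2. The ranges of every pair of neighbours in this order overlapped, so the order holds for the medians only. Irf7 ran from 0.475 to 103 CPM per kilobase and had the highest mean of the 9 in the ligated LSD1cKO femur, where its mean of 85.3 lay beside 69.8 for Irf5. The libraries of these genes overlapped there, at 67.3 and 103 for Irf7 and 66.7 and 72.9 for Irf5. In the LSD1WT mandible the Irf7 mean of 0.490 was the lowest of the 9. Exons of Irf1, Irf3, Irf5 and Irf7 overlap those of genes on the opposite strand (Gm17334, Bcl2l12, Tnpo3 and Phrf1), and exons of Irf9 and Ifnar2 overlap genes on the same strand (Rnf31 and Gm21970). Whether the counting used strand is not given in the sources used here, so reads could be shared between these partners.

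Across the 12 libraries, 8 of the genes varied together and Irf3 varied against them. Pearson correlations of log2 CPM, given as a description over libraries that share genotype, site and mouse, ran from 0.59 (Irf7 with Ifnar2) to 0.97 (Irf9 with Stat2) among the 8, and from -0.75 to -0.32 for Irf3 with each of them. Of all genes tested, those most like Irf7 over the 12 libraries were Usp18, the ISG15 protease that also blocks the receptor (0.996), Phf11d (0.995) and Phf11b (0.992). Stat2 was most like Gm5431 (0.988), Mx2 (0.987) and Ifi204 (0.987), and Irf9 most like Aif1 (0.993), Ifi204 (0.99) and Tlr1 (0.989). Irf1 was most like Dtx3l (0.993), Ifit2 (0.992) and Mxd1 (0.99), and Irf5 most like B3gnt3 (0.994) and Ikzf1 (0.994). Ifnar1 was most like 9930111J21Rik2 (0.991), Rnf115 (0.989) and Apaf1 (0.988), and Ifnar2 most like Sash1 (0.993), Fcrls (0.992) and a gene without a symbol, ENSMUSG00000121092 (0.991). For Irf2 they were Rab43 (0.991), Pik3cd (0.984) and Ncoa3 (0.983), and for Irf3 Arhgap27os2 (0.937), Dgat1 (0.929) and Tor2a (0.9).

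The interferons that feed this pathway were at the floor of detection. Of 20 type I, II and III interferon genes counted, 1 had more than 3 counts in any library. This was Ifnb1, with at most 6 counts in a library and 12 over all libraries, and the 20 genes together had 16 counts. The downstream genes were not. Their lists were chosen with earlier results of these data known, so the counts are a description. All 25 listed ISGF3 targets were higher in LSD1cKO over the 3 cultures, with a median log2 fold change of 2.07 against -0.06 over all genes. Of these, 17 passed the threshold, beside 3.53% of all genes, a share that holds for the next list too. The 6 with the smallest p were Ly6e (2.05), Oasl1 (3.01), Samd9l (1.25), Isg15 (2.65), Ifi44 (2.95) and Ifit1 (2.59), given as log2 fold changes with adjusted p values of 0.000288, 0.00246, 0.00449, 0.00646, 0.00662 and 0.0114. Of 16 IRF1 and gamma-activated targets 10 were called higher, with a median of 1.38, led by the immunoproteasome subunit Psmb8 (0.93, adjusted p 0.00608), the GTPases Irgm1 (1.47, adjusted p 0.00888), Gbp2 (2.38, adjusted p 0.00896) and Gbp3 (1.66, adjusted p 0.0197), the chemokine Cxcl10 (3.00, adjusted p 0.0127) and Psmb9 (0.86, adjusted p 0.0251). Both list medians lay above the log2 fold changes of Stat2, Irf9 and Irf1, which were 0.85, 0.87 and 0.62. Without the LSD1WT femur libraries of replicate 2 the counts were 25 of 25 and 13 of 16, beside 24.2% of all genes in that fit. In the mandible against the ligated femur, all 25 ISGF3 targets were lower at an unadjusted p under 0.05 in either genotype, beside 14.7% of all genes in LSD1WT and 6.81% in LSD1cKO, with medians of -4.24 and -3.54. None of these site differences was called, while all genes had medians of -0.03 and -0.0042.

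Calls among the remaining genes of the pathway over the 3 cultures stood beside 3.53% of all genes tested. Of 22 sensors and kinases 3 rose, which were the RNA sensors Rigi (1.88, adjusted p 0.00461) and Ifih1 (1.497, adjusted p 0.0117) and the endosomal receptor Tlr3 (1.74, adjusted p 0.0269), and the median was 0.10. Of 14 brakes on the signal Usp18 rose by 2.74 (adjusted p 0.00646) and Socs1, an inhibitor of Janus kinases, by 1.17 (adjusted p 0.0199), while the phosphatase gene Ptpn1 fell by 0.64 (adjusted p 0.0301). Their median was -0.03. None of 7 other receptor and Janus kinase genes was called by edgeR (3 had an unadjusted p under 0.05, and DESeq2 called 1), from -0.18 for Jak1 and 0.01 for Il10rb to 0.61 for Jak2 and 1.55 for Ifnlr1, and none of 9 IRF cofactors (1 had an unadjusted p under 0.05, and DESeq2 called 0), from -0.47 for Irf2bpl and -0.38 for Irf2bp1 to 0.11 for Spi1 and 0.47 for Batf2. Without the LSD1WT femur libraries of replicate 2 the calls were 13 of 22 higher and 1 lower, 5 of 14 higher and 1 lower, 4 of 7 higher and 0 of 9 in the order given, beside 24.2% of all genes in that fit. Plasmacytoid dendritic cells carry much Irf7 of their own. The summed level of their 10 markers was 70.0 to 362 CPM in LSD1WT and 100.2 to 327 CPM in LSD1cKO. In the mandible it was 77.0 and 70.0 CPM against 100.2 and 126 CPM, without overlap, while both femur cultures overlapped. Of 9 tested markers 1 was called (Runx2, 0.86, adjusted p 0.0469), and none was at 0. The sum holds Bst2, also a listed ISGF3 target, at 21.8 to 130 CPM in LSD1WT and 32.9 to 235 CPM in LSD1cKO. It therefore does not measure these cells alone. The part of these cells in the Irf7 values was not tested.

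**Figure D5:**
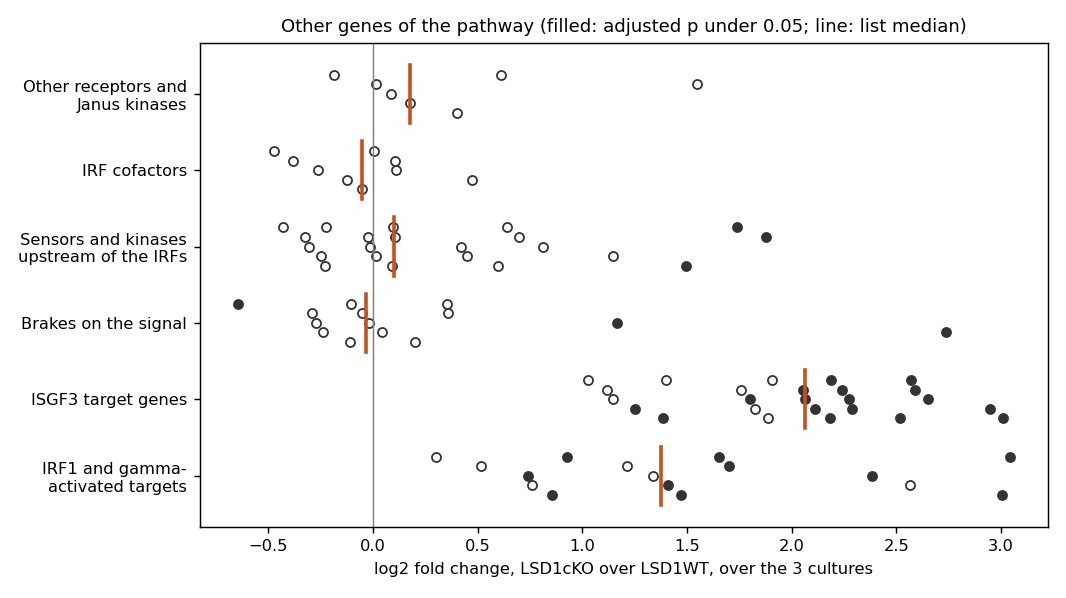
Log2 fold change of LSD1cKO over LSD1WT over the 3 cultures for the tested genes of 6 lists (1 point a gene, filled where the adjusted p was under 0.05), with the list median as a vertical line. All 25 ISGF3 targets lie above 0 with a median of 2.07, while the medians of the receptor, cofactor, sensor and brake lists lie between -0.05 and 0.18.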

How the data were processed

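PolyA RNA of 12 preosteoclast libraries was analysed from the table of read counts per gene that the authors deposited, whole numbers with no normalization or filter. The submitters' processing notes name HISAT2 2.1.0, FastQC, featureCounts, edgeR and the build GRCm39. Counts were analysed in R 4.3.3 with edgeR 4.0.16 (limma 3.58.1). Genes were kept with filterByExpr (15425 of 57010), libraries were scaled by TMM, and CPM was computed on the scaled sizes (log2 CPM used a prior count of 2). Comparisons within a culture, site or genotype came from a quasi-likelihood fit of the 6 conditions (6 residual degrees of freedom), and the effect over the 3 cultures from a fit of culture plus genotype (8 residual degrees of freedom). Neither fit had a term for the mouse. Benjamini-Hochberg adjustment ran over all genes tested, at a threshold of 0.05. Standard errors from edgeR are the size of the log2 fold change divided by the square root of the F statistic of its test. Groups came from the sample labels.

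The 9 genes and all gene lists were chosen with earlier results of these data known. All 9 are named with every value, other genes by their place in a list (at most 6 called genes by p, otherwise the 2 largest and 2 smallest changes) or by their correlation (3 for each of the 9). Some items that this rule names, with the list that holds one of them, are not reported here. Mouse numbers pair the mandible and femur libraries of ligated mice, and the deviations of these libraries from their condition means correlated at 0.030 in LSD1WT and 0.026 in LSD1cKO. Alternatives were DESeq2 1.42.0, RLE scaling, other filters, each library left out, subsets of libraries, blocks for replicate or mouse, the library with conflicting labels as femur, and both LSD1WT femur libraries of replicate 2 left out (added after the data were seen). Both models were run on simulated counts with a genotype change put into some genes and no difference between sites or mice. A pass was required only of the fit of culture plus genotype. That run does not stand for the shared mice or the replicate 2 libraries of these data. Exon lengths and overlaps came from GENCODE vM21 by Ensembl identifier, and upstream sequences from RefSeq (GRCm38.p6) by symbol, with all 9 matched in 11 windows. No coordinates of the counted genes on GRCm39 were used here. Limits for a count of 0 cover counting error only.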

Additional observations from a re-analysis of the deposited data

How the results depend on the processing

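The count of 1 of 9 genes called over the 3 cultures, beside 3.53% of all genes, became 2 with DESeq2 (Irf1 and Irf7, beside 8.09%), 0 with the mandible LSD1WT library of conflicting labels as femur (beside 2.15%) and 8 without both LSD1WT femur libraries of replicate 2 (beside 24.2%). It was 1 to 3 with each library left out, with 3 without LSD1WT femur ligated replicate 2 (beside 4.05%) and 2 without replicate 1 (beside 3.45%). Counts of 0 within a culture became 8 in the mandible fitted alone (beside 37.7%), and 2, 5 and 2 in the mandible, ligated femur and unligated femur without both libraries (beside 5.85%, 9.35% and 2.47%). In the ligated and unligated femur they became 1 and 1 with DESeq2 (beside 1.41% and 0.791%), and in the ligated femur 1 with no filter (beside 0.343%). Site counts of 0 in LSD1WT and LSD1cKO became 5 and 4 with DESeq2 (beside 7.71% and 5.25%), 5 and 4 with no filter (beside 3.02% and 1.21%), and 6 and 7 with a replicate block by mouse (beside 7.71% and 36.8%). In LSD1cKO they became 8 when fitted alone (beside 42.1%) and 7 without both libraries (beside 21.7%). With a library left out they were 0 to 8 in LSD1WT (8 without LSD1WT femur ligated replicate 1, beside 23.2%) and 0 to 4 in LSD1cKO (4 without LSD1WT femur ligated replicate 1 or 2, beside 4.25% and 4.12%). The cause was not tested. The other counts were within 1.5 times under every alternative run.

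Some fold changes turned sign, none of them called in all 12 libraries. Over the cultures Irf2 was 0.088 with that library as femur and 0.26 without both libraries, and Ifnar2 was 0.44 without both. In the ligated femur Irf2 was 0.285 with that library as femur, and Irf2 and Ifnar2 were 0.36 and 0.56 without both. In the unligated femur Irf2, Ifnar1 and Ifnar2 were 0.32, 0.39 and 0.22 without both. Leaving out each library in turn gave Irf2 from -0.094 to 0.13 over the cultures. In the ligated femur it gave Irf2 from -0.31 to 0.27, Irf5 from -0.21 to 1.18, Irf9 from -0.037 to 2.04, Ifnar1 from -0.19 to 0.55 and Ifnar2 from -1.32 to 0.47. In the unligated femur it gave Irf2 from -0.56 to 0.32, Irf3 from -0.33 to 0.10, Irf5 from -0.45 to 1.02, Ifnar1 from -0.39 to 0.39 and Ifnar2 from -1.32 to 0.22. Replicate numbers shared between genotypes do not mark shared mice, and with a replicate block for them Irf2 in the mandible was -0.023, while Irf7 over the cultures was still called. Deviations of same-numbered libraries of the genotypes correlated at -0.023 in the ligated and 0.224 in the unligated femur. Of 1033 alternative fold changes of the 9 genes, 919 kept direction and side of the threshold, 85 newly passed it, 1 no longer passed it (Irf7 with that library as femur) and 28 changed sign. RLE scaling moved 53 of 54 condition means by less than 1 SD, with a largest change of 1.99%.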
